A study of Mus musculus with 8 samples.

Results

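Lysosome and autophagy genes were described in cultured mouse optic nerves kept with or without lithium. A list of 40 genes was set by name: 16 lysosomal hydrolases and their activator precursor, 6 lysosomal membrane and cholesterol export proteins, 4 proton pump subunits, 12 genes of the autophagy machinery and the regulators Tfeb and Mtor. The array annotation held a probe set of its own for 39 of the 40, among 18193 genes measured. Cd63 was not analysed here. No value of the experiment chose the members, but the list was drawn up with earlier results of these data known.

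The lysosome is the acidic compartment in which a cell breaks down proteins, glycans and lipids. A rotary proton pump acidifies it, soluble hydrolases do the digestion, and membrane proteins shield its wall and carry products such as cholesterol back to the cytosol. Autophagy delivers the cell's own material to it inside a membrane sac, which grows through the ULK kinase complex, the Beclin lipid kinase complex and the conjugation of ubiquitin-like Atg8 proteins to lipid. The kinase mTOR restrains the start of autophagy and keeps TFEB, a transcription factor of lysosomal and autophagy genes, out of the nucleus. In white matter these genes are used by every cell type, and microglia, which engulf debris, are known for a high content of lysosomes.

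The nerves came from mice aged 35 to 45 days, were freed of the arachnoid membrane and were kept for 3 days as organotypic cultures with the retina attached. The control group was given saline in the culture medium and the lithium group 20 mM lithium chloride, and each group has 4 samples, measured on 8 Affymetrix arrays in all. The paper states that the outer layer of the nerve restricts entry and that a much lower concentration was intended within the nerve. No genetic change is given for these nerves, and the medium of both groups held serum. The labels give C57BL/6 mice and 6 nerves per sample, so that nerves were pooled, whereas the methods of the paper name another strain and another number of nerves. Whether the 4 samples of a group are separate animals or cultures is not stated, and the p-values reflect the scatter among these arrays, possibly a technical one. The RNA came from whole tissue, in which fewer cells of a type and less RNA per cell cannot be told apart.

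Signals are MAS5 intensities on a linear scale, scaled by the authors to the same trimmed mean of 100 on every array. Lithium array 1 stood apart: its median signal was 12.3, against 14.8 to 17.5 on the other 7 arrays, and its 99th percentile was 1623, against 1236 to 1391. Its signal for Gapdh, 2842, was also above the 1665 to 1999 of the other arrays. Where leaving it out moved a member's log2 fold change by over 1.5 times, the value without it is given with the class. Arrays 1 and 2 also differed from arrays 3 and 4 in both groups. Of 39 members, 14 were higher on arrays 1 and 2 in control and in lithium alike, 20 were lower in both, and 5 were mixed. For 21 of the 39, the mean of this difference over both groups exceeded in size the difference between lithium and control. Every member gave a signal of at least 29.7 on every array, above 5.64, the highest signal of 27 control probe sets for bacterial transcripts on any array.

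No member passed an adjusted p of 0.05 in either direction (limma, Benjamini-Hochberg over 45037 probe sets), and the lowest adjusted p was 0.0899. Among all genes 1.18% passed as higher in lithium and 2.05% as lower. At an unadjusted p under 0.05, 4 members were higher in lithium (Neu1, Npc1, Sqstm1 and Uvrag) and 2 were lower (Wipi1 and Ppt1), beside 9.38% and 12.6% of all genes. As shares of the members these counts are 10.3% and 5.13%, the first close to that of all genes and the second below it. With the array number as a block, 4 members were higher at that p, with Atp6v1h in place of Sqstm1, beside 10.8% of all genes. In that fit 6 were lower (Wipi1, Ppt1, Gusb, Map1lc3a, Atg7 and Ulk1), beside 14.5% of all genes. The signals of the groups did not overlap for 3 members as higher and 1 as lower, or 7.69% and 2.56% of the members, beside 6.47% and 8.92% of all genes. Of the 39 members, 21 (53.8%) had the higher mean in lithium and 18 the lower, with a median log2 fold change of 0.02. Of all genes 47.3% had the higher mean, with a median of -0.003. Of the genes whose higher group averaged 200 or more, 55.0% did, with a median of 0.03.

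**Figure D1:**
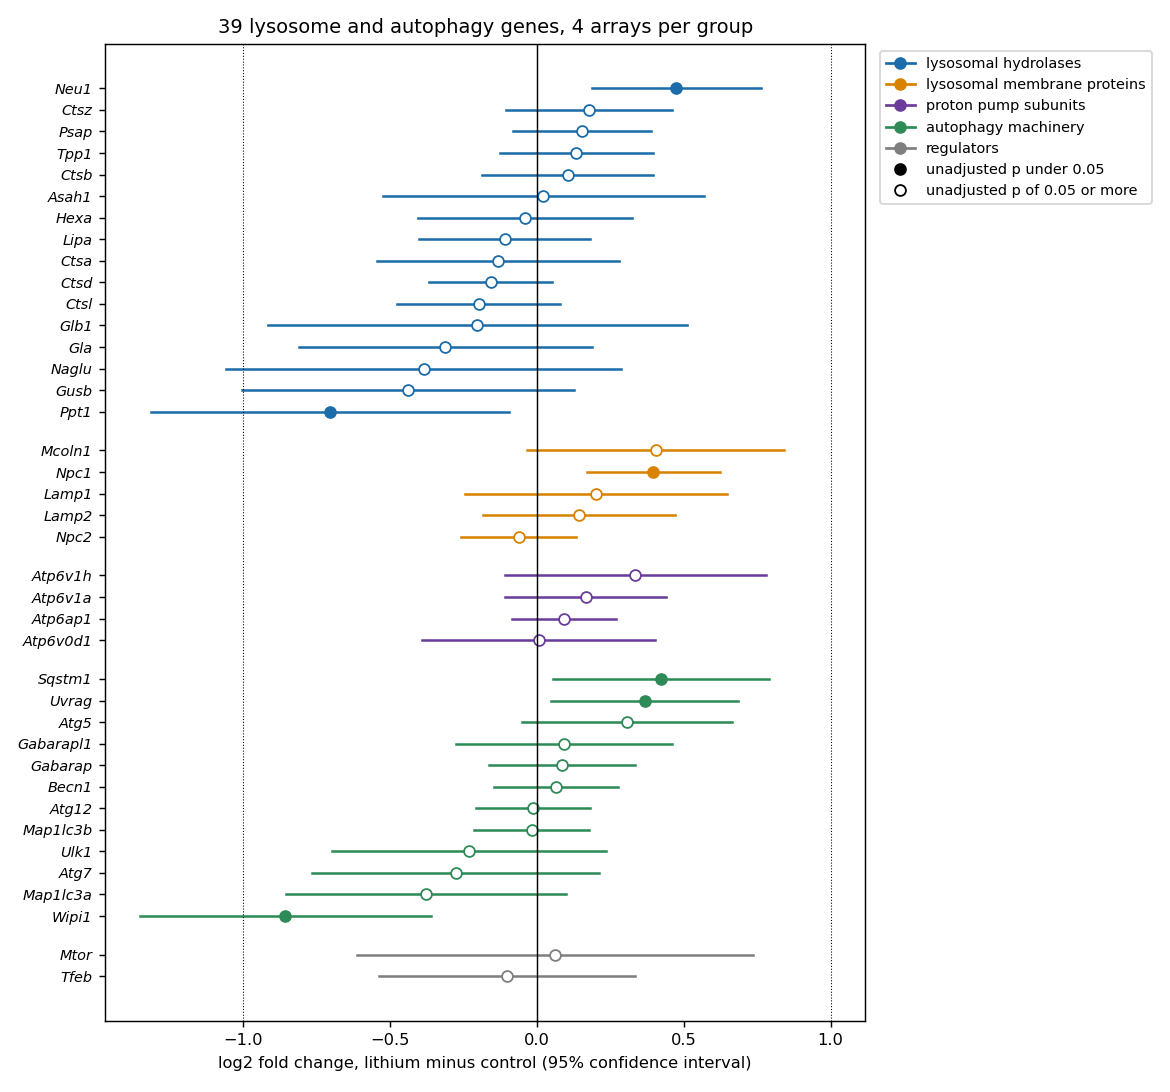
Log2 fold change, lithium minus control, of the 39 measured genes, ordered within 5 classes, with 95% confidence intervals as lines (4 arrays per group, limma). Filled circles have an unadjusted p under 0.05, and dotted lines mark a fold change of 2 in either direction. No point reaches a dotted line, and the intervals of 35 genes lie wholly between them.

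The arrays bounded the probe sets used for most of these genes closely. Each interval reflects the scatter of 1 probe set among these arrays, and other probe sets of a gene can lie outside it. One of Map1lc3b gave -0.45, against an interval of -0.21 to 0.18. Those of Lamp2 included -0.29 and -0.27, against an interval of -0.18 to 0.47. The 95% confidence interval of the fold change excluded a change of 2-fold in either direction for 35 of 39 members (89.7%), and a change of 1.5-fold for 21. Among all genes the share within 2-fold was 60.5%, and among the 5431 genes whose higher group averaged 200 or more it was 88.4%. The 4 members with wider intervals were Gusb, Naglu, Ppt1 and Wipi1. The median size of the log2 fold change, regardless of sign, was 0.17 for the members, 0.25 for all genes and 0.17 for genes at that signal.

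The promoters were searched for letters known from lysosomal genes, which not all classes share. TFEB is known to bind an E-box, CACGTG, in lysosomal promoters, and most tightly where it lies within the longer palindrome TCACGTGA. Both read the same on either strand, and each copy of the longer one contains the shorter. They were searched in the RefSeq promoter table (mouse build GRCm38.p6, 250 bases before to 50 after each gene's start), which lists 33 of the 40 genes. It does not list Ctsb, Asah1, Npc1, Atp6v1h, Map1lc3a, Becn1 or Atg12. CACGTG was present in 12 of the 33 promoters (36.4%), and in 8.09% of all 27025 promoters. TCACGTGA was present in 6 (18.2%), and in 1.125% of all promoters. The 6 are 3 hydrolases, 1 membrane protein and 2 pump subunits, and none of the 9 listed autophagy promoters holds it. The shorter letters were in 2 of those 9 and in 0 of 2 regulators. Of 140 further genes of the same pathways, counted below, 112 are listed, with CACGTG in 20.5% and TCACGTGA in 7.14%. The shares of the members thus do not stand for these pathways at large.

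The 6 members with TCACGTGA are shown by a window of 30 bases each, 5′ to 3′ on the strand of the gene, with the 8 letters in capitals. The letters begin 13, 99, 195, 46, 4 and 132 bases before the start in the order given.
Ctsa (chr2:164833749-164833778, plus strand): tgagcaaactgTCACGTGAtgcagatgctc
Ctsd (chr7:142387908-142387937, minus strand): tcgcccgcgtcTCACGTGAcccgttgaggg
Gla (chrX:134601182-134601211, minus strand): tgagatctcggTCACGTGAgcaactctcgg
Mcoln1 (chr8:3500462-3500491, plus strand): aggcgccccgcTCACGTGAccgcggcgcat
Atp6v0d1 (chr8:105566050-105566079, minus strand): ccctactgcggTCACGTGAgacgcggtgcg
Atp6v1a (chr16:44139373-44139402, minus strand): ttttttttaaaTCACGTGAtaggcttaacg
Ctsa and Gla hold a further copy each. Lamp1 holds 4 copies of the shorter letters, 15, 28, 45 and 61 bases before its start, and none of the longer. The members with TCACGTGA had a median log2 fold change of -0.06, from -0.31 to 0.40, with 3 of 6 higher in lithium. The 26 measured members listed without it had a median of 0.02, with 13 higher. For CACGTG the medians were -0.14 in 12 members with it and 0.07 in 20 without. Of the members with an unadjusted p under 0.05, Neu1, Ppt1, Sqstm1, Uvrag and Wipi1 hold neither in this window, and Npc1 is not listed. The letters are a description of these windows and no measure of binding.

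Lysosomal hydrolases had the lower mean in lithium for 10 of 16, with a median log2 fold change of -0.12, and none passed an adjusted p of 0.05. Without lithium array 2 the median was -0.004. Neu1, the lysosomal sialidase, had control signals of 91.3, 70.7, 68.9 and 72.4, by array number, and lithium signals of 122, 94.7, 104 and 100.5. All lithium values lay above all control values. The mean was 75.8 ± 10.4 in control and 105 ± 11.7 in lithium (SD, n = 4 each), a log2 fold change of 0.48 with a 95% confidence interval of 0.19 to 0.76 (limma adjusted p = 0.10). The difference was 0.42 within arrays 1 and 2 and 0.53 within arrays 3 and 4. Of the other probe sets of Neu1, a dim one gave 1.09 (7.56 in control and 16.03 in lithium, limma adjusted p = 0.116) and another -0.23.

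Ppt1, the thioesterase that removes palmitate from proteins, had the largest difference among the hydrolases. Its signals were 329, 382, 520 and 583 in control and 224, 213, 298 and 381 in lithium. Each lithium value was below the control value of the same number, but the groups overlapped. The log2 fold change was -0.70 with an interval of -1.31 to -0.09 (limma adjusted p = 0.217). The probe sets of Ppt1 disagreed in direction: besides the one used, a second lower one gave -0.13, whereas 3 dimmer ones, with control means of 10.5, 15.97 and 38.7, gave 0.86, 0.78 and 0.74. Their mean with the other 2 was 0.31, in the opposite direction, so that no direction is given for this gene.

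Ctsb and Ctsd are the best known cysteine and aspartic proteases of the lysosome. Ctsb measured 1592, 1589, 1471 and 1551 in control and 2057, 1746, 1535 and 1399 in lithium (log2 fold change 0.10, interval -0.19 to 0.40). The lithium arrays spread on both sides of the controls, and without lithium array 1 the difference was 0.003. Ctsd measured 1397, 1331, 1383 and 1621 in control and 1381, 1153, 1304 and 1298 in lithium (-0.16, interval -0.37 to 0.05). Each lithium value was below the control of the same number, and the groups overlapped. For both genes a change of 1.5-fold in either direction lay outside the interval.

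Among the other proteases, Ctsl, a cysteine protease, had means of 1289 in control and 1132 in lithium (log2 fold change -0.20), and Ctsz, a cysteine carboxypeptidase, had 873 and 996 (0.18). Ctsa, the serine carboxypeptidase that protects the sialidase and the β-galactosidase, had means of 650 and 598 (-0.13), and Tpp1, a tripeptidyl peptidase, had 629 and 694 (0.13). The glycosidases Gla, Glb1, Gusb, Naglu and Hexa cut sugars from glycolipids and glycosaminoglycans. All had the lower mean in lithium, Hexa not after median centring (0.05) and Glb1 not without lithium array 2 (0.02), with log2 fold changes of -0.31, -0.20, -0.44, -0.39 and -0.04 and the lowest unadjusted p at 0.109 (limma). Single arrays moved these differences by over 1.5 times: Naglu was -0.17 without lithium array 2, Gla -0.17 without lithium array 1 and Gusb -0.25 without control array 4. For Gusb, at 217 ± 70.04 in control and 156 ± 22.7 in lithium (SD, n = 4 each), a second probe set gave -0.62 (limma adjusted p = 0.103). The lipid enzymes lay near 0: Asah1, acid ceramidase, had a log2 fold change of 0.02, and Lipa, the acid lipase of cholesteryl esters, -0.11. Psap, the precursor of the saposins that present glycolipids to their enzymes, had means of 1241 and 1389 (0.15), and its other probe set gave 0.23 (limma adjusted p = 0.269). Without lithium array 1 the log2 fold change was 0.07 for Ctsz, 0.07 for Psap, -0.12 for Glb1, -0.14 for Hexa, -0.15 for Asah1 and -0.05 for Lipa.

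**Figure D2:**
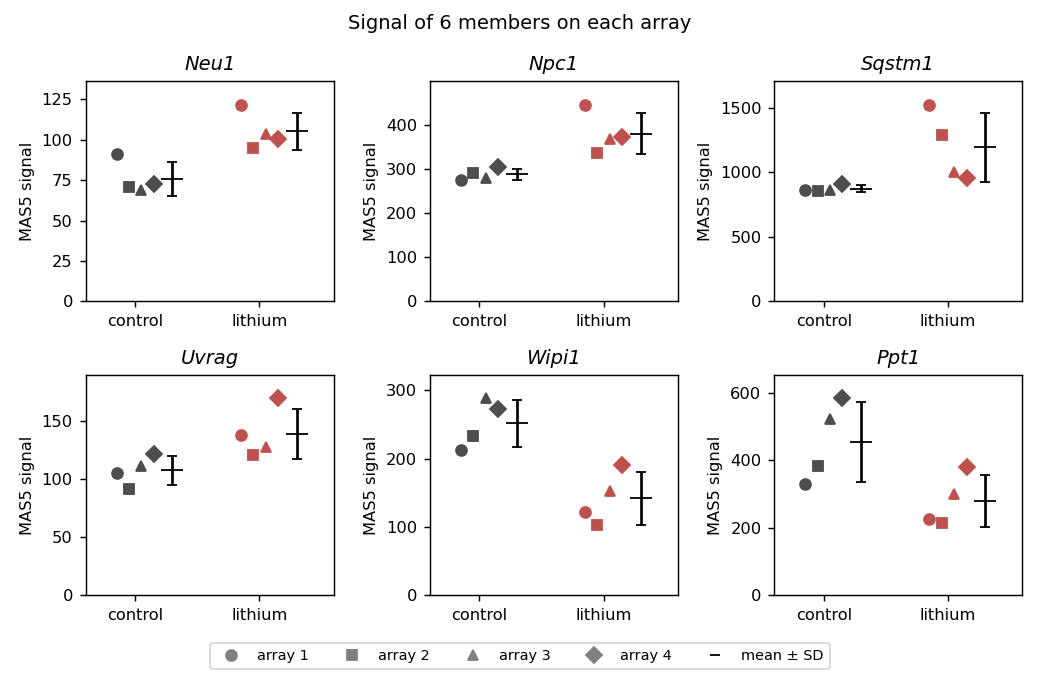
MAS5 signal on each of the 4 control and 4 lithium arrays of the 6 genes with an unadjusted p under 0.05, with the array number as the symbol and the mean ± SD beside it; each axis starts at 0. The groups do not overlap for Neu1, Npc1, Sqstm1 and Wipi1 and overlap for Uvrag and Ppt1, and the lithium values of Sqstm1 spread from 957 to 1527.

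Lysosomal membrane and cholesterol export proteins were higher in lithium by their means for 4 of 5, with a median log2 fold change of 0.20, or 0.04 without lithium array 1. Npc1, the membrane transporter that moves cholesterol out of the lysosome, had the lowest adjusted p of all members. Its signals were 276, 291, 280 and 304 in control and 446, 336, 367 and 372 in lithium. All lithium values lay above all controls, and lithium array 1 was the highest. The mean was 288 ± 12.7 in control and 380 ± 46.7 in lithium (SD, n = 4 each), a log2 fold change of 0.40 with an interval of 0.17 to 0.62 (limma adjusted p = 0.0899). It was 0.45 within arrays 1 and 2, 0.34 within arrays 3 and 4, and 0.32 without lithium array 1 (limma adjusted p = 0.0982).

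Its soluble partner Npc2, which hands cholesterol to Npc1, measured 1753, 1628, 1468 and 1565 in control and 1448, 1653, 1616 and 1429 in lithium. The groups overlapped throughout. The log2 fold change was -0.06 with an interval of -0.26 to 0.14, and it turned to 0.03 when each array was centred on its median. Without lithium array 1 it was -0.03. As a fold change the interval ran from 0.836 to 1.10.

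Lamp1, a major glycoprotein of the lysosomal wall, measured 1607, 1631, 1393 and 1473 in control and 2530, 1770, 1475 and 1423 in lithium. Lithium array 1 was far above the rest and lithium array 4 below 3 of the controls. The log2 fold change was 0.20 with an interval of -0.25 to 0.65, and without lithium array 1 it was 0.02. Lamp2, which also serves as a receptor of chaperone-mediated autophagy, had means of 1260 and 1397 (0.14, or 0.04 without lithium array 1) on the probe set used. Its probe sets did not run one way: another 2 gave -0.29 and -0.27 (limma adjusted p = 0.196 and 0.157) and the last -0.03. Mcoln1, the lysosomal calcium channel, had means of 161 ± 25.4 in control and 215 ± 44.8 in lithium (n = 4 each, SD; log2 fold change 0.40, limma adjusted p = 0.319). All 3 of its probe sets had the higher value in lithium, and the groups overlapped. So did all 4 number pairs, that is control and lithium arrays of the same number, which no label gives as pairs.

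**Figure D3:**
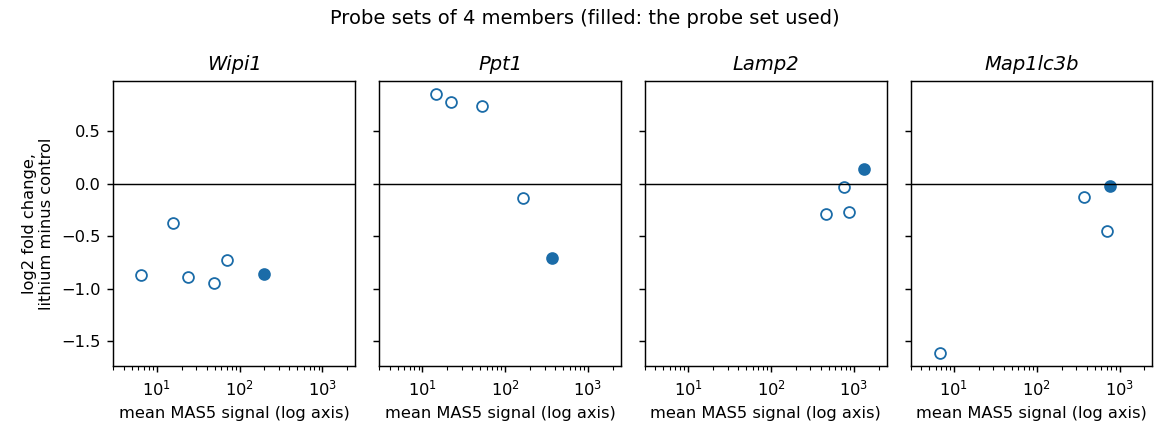
Log2 fold change, lithium minus control, of each probe set of Wipi1, Ppt1, Lamp2 and Map1lc3b against its mean MAS5 signal (log axis). Filled circles mark the probe set used for the gene. All 6 of Wipi1 and all 4 of Map1lc3b lie below 0, and those of Ppt1 and Lamp2 lie on both sides.

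The proton pump subunits had the higher mean in lithium for 4 of 4, though Atp6v0d1 turned to -0.004 after quantile normalization, with a median log2 fold change of 0.13, or 0.06 without lithium array 1, and no adjusted p under 0.423 (limma). Atp6ap1, an accessory subunit, measured 1107, 1059, 1108 and 1228 in control and 1299, 1107, 1179 and 1214 in lithium (log2 fold change 0.09, interval -0.09 to 0.27). Atp6v1a, the catalytic subunit that splits ATP, measured 666, 660, 657 and 633 in control and 926, 659, 709 and 669 in lithium (0.17, interval -0.11 to 0.44). Here 3 of the lithium values lay close to the narrow control range and lithium array 1 well above it. Without that array the log2 fold change was 0.05 for Atp6v1a and 0.05 for Atp6ap1.

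Atp6v1h, a regulatory subunit of the cytosolic sector, had means of 343 ± 58.1 and 436 ± 88.4 (SD, n = 4 each; log2 fold change 0.33, interval -0.11 to 0.78). It was higher in lithium in 4 of 4 number pairs, and with the array number as a block its unadjusted p was 0.0117 (limma adjusted p = 0.128). Atp6v0d1, a subunit of the membrane sector, was nearly equal, with means of 671 and 679 (0.01, interval -0.39 to 0.40, and 0.06 without lithium array 1). Together with 14 further subunits and accessory proteins of the pump, 15 of 18 had the higher mean in lithium (14 after quantile normalization, 16 after median centring), with a median of 0.12, and none passed an adjusted p of 0.05. Among all genes 47.3% had the higher mean in lithium. Among the 5431 genes whose higher group averaged 200 or more it was 55.0%, and 17 of the 18 pump genes were at that level. The count of pump genes with the higher mean was 13 to 15 when each array was left out in turn, and 15 without lithium array 1.

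**Figure D4:**
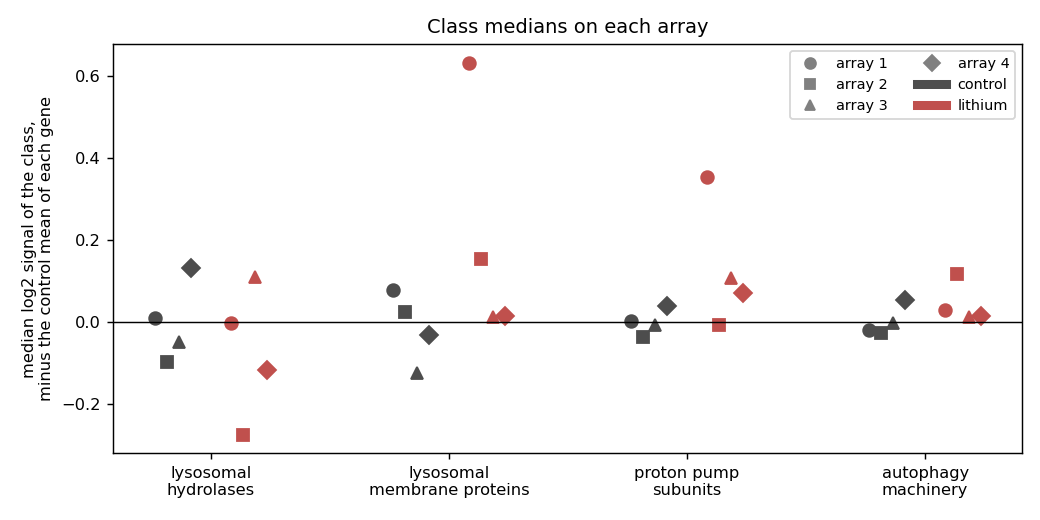
Median log2 signal of each class on each array, after the control mean of each gene was subtracted (16, 5, 4 and 12 genes). On lithium array 1 the median was 0.63 for the membrane proteins and 0.36 for the pump subunits, and on the other 3 lithium arrays it was at most 0.15 for either class.

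The autophagy machinery was evenly divided, with 6 of 12 genes higher and 6 lower by their means and a median log2 fold change of 0.03, and none passed an adjusted p of 0.05. Wipi1, which binds the lipid phosphatidylinositol 3-phosphate on the growing membrane, had the largest difference of all members. Its signals were 213, 233, 288 and 273 in control and 122, 102, 152 and 191 in lithium. All lithium values lay below all controls. The mean was 252 ± 34.8 in control and 142 ± 38.6 in lithium (SD, n = 4 each), a log2 fold change of -0.86 with an interval of -1.35 to -0.36 (limma adjusted p = 0.0923). It was -0.995 within arrays 1 and 2 and -0.72 within arrays 3 and 4. All 6 probe sets were lower in lithium, from -0.38 to -0.95.

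Wipi1 passed an adjusted p of 0.05 under 2 of 18 alternatives. The limma adjusted p was 0.0255 when a mean signal of 200 in the higher group was required before the test. Wipi1 met this through control only (252, against 142 in lithium). The filter thus depends on the difference tested, and no conclusion is drawn from that pass. With the split of arrays 1 and 2 from 3 and 4 in the fit, the limma adjusted p was 0.0173. That split was seen in these same arrays, and no label gives it. Under it 2834 of 45037 probe sets were called, against 1050 in the main fit. The limma adjusted p of Wipi1 was 0.0576 to 0.252 under the settings that kept all arrays and did not pass. In simulated data with 45037 probe sets, shifts were put only into probe sets with a mean signal above 200. A log2 shift of 1 was recovered for 23 of 50 raised and 24 of 50 lowered probe sets, and a shift of 0.5 for 2 and 6 of 50. The simulation gave 61 calls against 1050 in the data, so that its threshold was stricter. Its noise was independent between arrays, without the split of arrays 1 and 2 from 3 and 4. It therefore does not give the recovery for Wipi1 or for these data.

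Sqstm1, or p62, the receptor that carries ubiquitinated cargo into autophagosomes and is itself degraded there, measured 867, 855, 867 and 910 in control and 1527, 1290, 1002 and 957 in lithium. The controls were tight, all lithium values lay above them, and lithium arrays 1 and 2 were much higher than 3 and 4. The mean was 875 ± 24.2 in control and 1194 ± 266 in lithium (SD, n = 4 each), a log2 fold change of 0.42 with an interval of 0.06 to 0.79 (limma adjusted p = 0.217). The difference was 0.70 within arrays 1 and 2 and 0.14 within arrays 3 and 4, and 0.30 without lithium array 1 (limma adjusted p = 0.277). Its other probe set gave 0.87 (92.5 in control and 183 in lithium, limma adjusted p = 0.286). These are levels of RNA, and protein was not measured here.

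Uvrag, a partner of Beclin in the lipid kinase complex of vesicle maturation, measured 105, 91.7, 111 and 122 in control and 138, 121, 127 and 169 in lithium. Each lithium value was above the control of the same number, and the groups overlapped only between the highest control and the lowest lithium value. The log2 fold change was 0.37 with an interval of 0.05 to 0.69 (limma adjusted p = 0.216). Becn1, Beclin itself, had means of 753 and 790 (0.06, interval -0.15 to 0.28, and 0.11 without lithium array 1).

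The Atg8 proteins, which coat the growing membrane and bind cargo receptors, did not run one way. Gabarap measured 1070, 997, 883 and 989 in control and 1210, 1069, 995 and 918 in lithium (log2 fold change 0.09, interval -0.16 to 0.33). The groups overlapped, with lithium array 1 the highest. Gabarapl1 had means of 715 and 765 (0.09), Map1lc3b 778 and 769 (-0.02) and Map1lc3a 775 and 613 (-0.38, interval -0.85 to 0.10). Map1lc3a was lower in lithium in 4 of 4 number pairs. The probe set used for Map1lc3a has the suffix _x_at, and its other probe set, at 490 in control and 421 in lithium, gave -0.20. Without lithium array 1 the log2 fold change was 0.01 for Gabarap, 0.01 for Gabarapl1, -0.05 for Map1lc3b and -0.22 for Map1lc3a. For Map1lc3b the other 3 probe sets were also lower, one with a signal close to that of the probe set used at -0.45 (limma adjusted p = 0.132).

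The enzymes and factors that attach Atg8 proteins to lipid were divided too. Atg5, part of the ligase complex, had means of 84.5 and 104 (log2 fold change 0.31, interval -0.05 to 0.66) and was higher in lithium in 4 of 4 number pairs. Another probe set of Atg5, at 71.5 in control and 73.4 in lithium, gave 0.04, and a dimmer one gave -0.07. The mean of its probe sets was 0.09. Atg12, the ubiquitin-like partner of Atg5, had means of 829 and 821 (-0.01, interval -0.21 to 0.18). Atg7, the activating enzyme upstream of both, had 82.9 and 69.1 (-0.28, or -0.15 without lithium array 1, but 0.26 as the mean of its 4 probe sets), and Ulk1, the kinase that starts the process, had 77.5 and 65.6 (-0.23). Both were lower in lithium in 4 of 4 number pairs, with intervals that included 0.

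The regulators gave no adjusted p under 0.842 (limma). Tfeb measured 39.1, 42.1, 46.0 and 46.9 in control and 39.2, 29.7, 41.9 and 54.9 in lithium, so that the lithium values spread to both sides of the controls. Its means were 43.5 ± 3.60 in control and 41.4 ± 10.4 in lithium (n = 4 each, SD; log2 fold change -0.10, interval -0.54 to 0.34). Mtor measured 137, 141, 214 and 236 in control and 162, 126, 231 and 244 in lithium. In both groups arrays 3 and 4 lay above arrays 1 and 2. The means were 182 ± 50.6 and 191 ± 56.1 (SD, n = 4 each; log2 fold change 0.06, interval -0.61 to 0.74, and 0.12 without lithium array 1). A second, dim probe set of Mtor gave -0.70 (28.1 in control and 17.4 in lithium, limma adjusted p = 0.103). Where TFEB was in the cell and how active mTOR was were not measured.

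A wider set of 140 further genes of the same pathways was counted beside the members, and 131 of them were measured. Of these 131, 1 passed an adjusted p of 0.05 as higher in lithium and 2 as lower (limma), beside 1.18% and 2.05% of all genes. The list was thus not called more often than all genes. The median log2 fold change was -0.13 over 29 further hydrolases, 0.07 over 25 membrane proteins, 0.12 over 14 pump genes, 0.05 over 35 autophagy genes and 0.08 over 28 regulators of mTOR and TFEB. The first of these turned to 0.04 without lithium array 2, with 15 of 29 higher, and was -0.05 after median centring, -0.05 without probe sets of the suffix _x_at and -0.04 with array weights. That of the membrane proteins was -0.0003 without control array 3, and that of the autophagy genes 0.02 without control array 4. The lowest p of the membrane proteins was that of Cd164, a sialomucin, at 682 in control and 536 in lithium (limma adjusted p = 0.0658). Among pump genes it was that of Atp6v1g2, a subunit found mainly in neurons, at 54.0 in control and 34.6 in lithium (limma adjusted p = 0.0537).

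Ctsc, the dipeptidyl peptidase that activates the granule proteases of myeloid cells, fell. It measured 476, 429, 522 and 507 in control and 197, 193, 245 and 223 in lithium. The groups were far apart. The log2 fold change was -1.17 with an interval of -1.42 to -0.93 (limma adjusted p = 0.0133). It passed when each array was left out in turn (limma adjusted p = 0.0231 to 0.0435) and with the array number as a block (0.0394), but not as the mean of its probe sets (0.0572).

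Deptor, an inhibitor bound to mTOR, fell from 82.8 ± 8.96 to 40.3 ± 8.33 (SD, n = 4 each), a log2 fold change of -1.05 with an interval of -1.43 to -0.67 (limma adjusted p = 0.0314). Ambra1, an activator of Beclin, rose from 84.1 ± 4.96 to 117 ± 8.82 (SD, n = 4 each), a log2 fold change of 0.48 with an interval of 0.30 to 0.66 (limma adjusted p = 0.0345). Both calls were close to the threshold, and neither passed as the mean of the gene's probe sets (limma adjusted p = 0.0573 and 0.297). With the array number as a block the adjusted p was 0.0872 for Deptor and 0.0663 for Ambra1. Ambra1 did not pass when any 1 of the 8 arrays was left out (0.0524 to 0.0894) or after median centring (0.15), and Deptor passed only without lithium array 4 (0.0317; otherwise 0.0564 to 0.0781, without control array 1, 2, 3 or 4 or lithium array 1, 2 or 3).

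**Figure D5:**
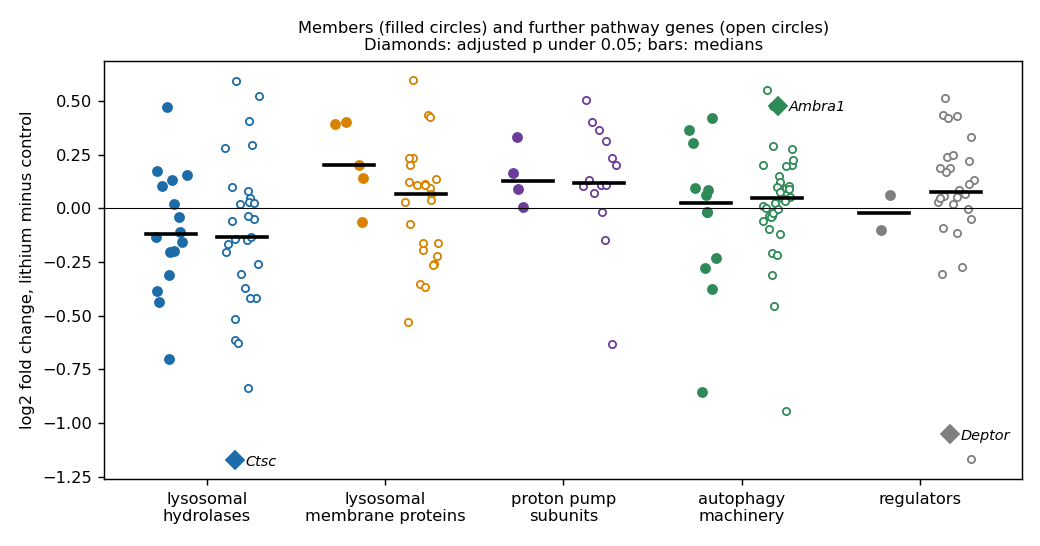
Log2 fold change, lithium minus control, of the 39 members (filled circles) and the 131 further pathway genes (open circles) by class, with bars at the medians. Diamonds mark the 3 further genes with an adjusted p under 0.05: Ctsc and Deptor lower and Ambra1 higher in lithium.

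Markers of other cells moved with the treatment beside these genes. Of 16 microglial markers, 2 fell, Trem2 from 109 to 48.0 and Tyrobp from 906 to 517 (limma adjusted p = 0.0335 and 0.0374), and the list's median log2 fold change was -0.28 (-0.19 and 0 calls after median centring). By their means 13 of the 16 were lower and 3 higher, with log2 fold changes of 0.50 for Cx3cr1, 0.18 for Aif1 and 0.16 for Siglech. P2ry12 (-0.18) and Spi1 (-0.06) differed little. The summed signal of the 16 was 3692 to 5103 in control and 2977 to 3989 in lithium. No microglial marker lay below the control probe sets on every array, and 15 of 16 lay above them on all 8. For fibroblast markers 4 of 10 fell, with a median of -1.63 and sums of 3238 to 5205 in control and 795 to 2267 in lithium. For neutrophil markers 2 of 5 fell, with a median of -1.81 and sums of 310 to 506 in control and 36.8 to 63.6 in lithium. Of these 5, 2 lay below the control probe sets on every array and 1 above them on all 8, and with 16 added to each signal the median was -0.42. Among pericyte markers 1 of 8 fell, with a median of -0.77. Of these 9 calls, none passed with the array number as a block. When any 1 array was left out, 1 or 2 fibroblast, 0 or 1 microglial, 0 to 2 neutrophil and 0 or 1 pericyte markers passed as lower. No marker of astrocytes (median -0.31), oligodendrocytes (-0.02), precursors (0.09) or endothelium (-0.29) passed. Precursor markers ran from -1.52 (Pdgfra) to 0.77 (Olig2), with 4 of 6 higher by their means. Endothelial markers ran from -2.03 (Flt1) to 0.10 (Pecam1), with 6 of 7 lower. The part of these cells in the values of Ctsc, the hydrolases or any other gene here was not tested.

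As a check of the labelled tissue, all 10 measured oligodendrocyte and all 12 astrocyte markers lay above the control probe sets on every array. Of 5 photoreceptor markers 1 did so, and of 5 retinal ganglion cell markers 2.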

How the data were processed

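Optic nerve RNA was measured on 8 Affymetrix Mouse Genome 430 2.0 arrays, 4 control and 4 lithium, grouped by their labels. The authors made the deposited intensity values with the MAS5 algorithm in GeneSpring GX, as linear signals scaled so that each array averages 100 once the 2% at either end are trimmed. A baseline transformation that the methods name is not visible in them. Of 45101 probe sets, 64 Affymetrix controls were left out. Of all probe sets, 34958 had 1 gene symbol, 932 several and 9211 none in the platform annotation.

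Signals were floored at 1, taken to log2 and fitted as lithium minus control in limma (version 3.58.1, R version 4.3.3; lmFit, then eBayes) with no block. Benjamini-Hochberg adjustment ran over 45037 probe sets. A gene took the probe set of its symbol with the highest mean log2 signal, and the Entrez identifiers of 39 of 39 members were found in a RefSeq table with the same symbols. Means and SDs are of linear signals. A fold change is the difference of the mean log2 signals, and levels of different probe sets were not compared. Precision is limited by how many arrays there are.

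The members, the further pathway lists, the marker lists and the tests were chosen with earlier results of these data known. Every member is named, the signals of all 8 arrays are given for members with an unadjusted p under 0.05 and for the 2 members of each class with the highest mean signal (regulators included), and of each further list the called genes or, with none, the gene with the lowest p. Trem2, Tyrobp and the array values of Ctsc were picked after their values were seen.

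The deviations of same-numbered control and lithium arrays from their group means correlated at 0.167, 0.147, 0.130 and 0.197, all above 0.1. On the basis of the data only, the numbers were used as pairs in the counts of number pairs. They also served as the block of an alternative fit. The main fit did not pair the arrays. Arrays of unlike number within 1 and 2 or within 3 and 4 correlated at 0.0706 to 0.131, so that number pairs are not told apart from that split. A count of number pairs is a description of the gene, and its share over all genes was not taken. Alternatives were quantile normalization, median centring, 16 added before log2, a signal of 200 required before the test, all probe sets of a gene averaged, exclusion of probe sets with the suffix _x_at, array weights, a variance both trended and robust, the array number as a block, the split of arrays 1 and 2 from 3 and 4 as a term, and each array left out. The signal of 200 was required of the mean of the higher group. The fit was tested on simulated data of this comparison (45037 probe sets, 61 calls, 6 of them wrong), whose settings differ from the data as given above. Promoters were read from a RefSeq table of build GRCm38.p6, and protein sequences of the Atg8 family were not used here. Plots used Python 3.11.15 and matplotlib 3.10.9.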

Additional observations from a re-analysis of the deposited data

Results flagged for a closer look

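Each of 92 sets of 4 arrays, the control and the lithium values of the 39 members and of the further pathway genes named above among them, was examined for an array far from the others, and chance marks about 1 in 20 such sets. Atp6v1g2, a subunit of the proton pump, was the 1 case. Its signal on lithium array 4 was 38.3, and the nearest of the other lithium arrays was at 33.7, a gap of 0.844 of the range of the group and past Dixon's 95% critical value. All 4 lithium values lay below the control values, which ran from 44.0 to 62.0.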

How the results depend on the processing

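No member passed as higher in lithium under any alternative run, and none in either direction when any 1 array was left out. As lower, Wipi1 passed when a mean signal of 200 in the higher group was required, which it met through control only (1 member). Wipi1 and Ppt1 passed (limma adjusted p = 0.0173 and 0.0202) with a term for arrays 1 and 2 against 3 and 4 (2 members). Under that term the calls in the whole table rose from 1050 to 2834 of 45037 probe sets. The split was seen in these same arrays, and no label gives it. With the array number as a replicate block the members called were 0 higher and 0 lower, and the probe sets called in the whole table went from 1050 to 124. Median centring moved the median of all genes to 0.08. The median log2 fold change of the members was 0.11 under it and 0.075 when a signal of 200 was required, which drops 11 members, and that of the autophagy machinery was 0.11 under it and 0.089 as means of probe sets. Both medians turned below 0 after quantile normalization (-0.0037 and -0.0024).

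The direction of 13 members changed under 1 or more alternatives. Under median centring Npc2 was 0.025, Hexa 0.047, Atg12 0.072 and Map1lc3b 0.069. After quantile normalization Asah1 was -0.030 and Atp6v0d1 -0.0037, and with array weights Asah1 was -0.10. As means of probe sets Ppt1 was 0.31, Atg7 0.26, Lamp2 -0.11 and Mtor -0.11. With 1 array left out, values ran from -0.15 to 0.19 for Asah1, -0.057 to 0.032 for Atg12, -0.11 to 0.10 for Atp6v0d1, -0.22 to 0.014 for Ctsa, -0.37 to 0.016 for Glb1, -0.14 to 0.071 for Hexa, -0.064 to 0.015 for Map1lc3b, -0.072 to 0.24 for Mtor and -0.25 to 0.047 for Tfeb. The cause was not tested, beyond the change of probe sets itself.

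The count of further pathway genes called, 1 higher and 2 lower, was put through the same alternatives after the data were seen. It was 2 and 4 after quantile normalization, 4 and 5 with 16 added, 2 and 1 with a signal of 200 required, 4 and 6 with the array pair term and 0 and 1 with the replicate block. The higher count was 0 after median centring and with the trended variance and 2 with array weights. With 1 array left out it was 0 higher and 1 to 3 lower, and Ctsc passed each time. As means of probe sets it was also 1 and 2, but of other genes (Plbd2 higher, Ctsk and Atp6v1g2 lower). Every member's signal lay above that of the control probe sets.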
